A study of Homo sapiens with 6 samples.

Results

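Simple cassette exons are single internal exons that a transcript either keeps or leaves out. Here they are the exons of 52 to 500 nt that fell in a cluster of exactly 3 introns in the output of LeafCutter, which collects overlapping introns of a gene into clusters. One intron skips the exon, and the 2 flanking introns share its start and its end. With 20 or more spliced-read counts per cluster in each of 6 libraries, 6584 of the 39496 deposited clusters met this rule. No difference between the groups entered the rule. The 3 introns had to be in the deposited counts, though, and reads from 1 group alone could put an intron there. The exons lay in 4527 genes, 1442 of which held several of them. Another 15 exons could not be placed in a gene of GENCODE 29, a reference annotation, and 145 matched more than 1 gene.

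TDP-43, the protein of TARDBP, resides mainly in the nucleus and binds UG-rich RNA in introns and near exons. It blocks the splicing of many intronic sequences that resemble exons, and it also promotes the inclusion of some conserved exons. In amyotrophic lateral sclerosis and frontotemporal dementia it leaves the nucleus and forms cytoplasmic aggregates, and changed cassette exons are a readout of its lost nuclear function. An exon whose length is a multiple of 3 keeps the reading frame when it is included or skipped, while other coding exons shift it.

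The libraries were polyA-selected and stranded, from U2OS cells, a human osteosarcoma line, in which doxycycline induced TDP-43-mNLS-Clover, a fluorescent form of TDP-43 whose nuclear localization signal is mutated. In the aggregate group, 3 cultures had received 50 nM fibril seeds of the TDP-43 LCD, its low-complexity domain, with lipofectamine-3000. In the diffuse group, 3 cultures had been mock transfected with storage buffer. After 48 hours image-based sorting took aggregate-bearing cells out of the seeded cultures, and cells whose Clover signal was diffuse out of the mock cultures. Sort gate and seeding therefore cannot be told apart. Both groups expressed the induced transgene, all 6 libraries belonged to 1 batch, and the cells of a group were 1 line.

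The aggregate libraries held 4458657 to 4948360 spliced-read counts in the 3 introns of these clusters and the diffuse libraries 3987211 to 4263458, and the median cluster held 290 to 323 counts in every library. TARDBP itself stood at 2581 ± 42.5 CPM (counts per 1e6, with TMM scaling) in aggregate and 7440 ± 218 CPM in diffuse libraries (SD, n = 3 each), a count in which endogenous gene and transgene cannot be told apart. Of 8 osteosarcoma and mesenchymal marker genes 7 exceeded 1 CPM, with TWIST1 near 0. The 8 together reached 3496 to 3786 CPM in aggregate and 5724 to 5973 CPM in diffuse libraries. In aggregate libraries the summed markers of other cell types reached 0.162 to 0.265 CPM for blood, 1.59 to 2.24 CPM for endothelium, 8.99 to 10.0 CPM for epithelium and 44.5 to 45.7 CPM for neurons. In diffuse libraries they reached 0.211 to 0.427 CPM for blood, 1.83 to 2.31 CPM for endothelium, 9.53 to 9.79 CPM for epithelium and 58.6 to 61.5 CPM for neurons. The sums hide opposite differences. RBFOX3, which encodes a neuronal splicing regulator, stood at 20.1 ± 1.51 CPM in aggregate and 2.79 ± 0.155 CPM in diffuse libraries, while the synaptic gene SYT1 stood at 9.14 ± 0.929 CPM in aggregate and 29.2 ± 0.799 CPM in diffuse libraries. RUNX2, a transcription factor of bone, stood at 51.3 ± 1.6 CPM in aggregate and 34.7 ± 1.27 CPM in diffuse libraries, and the collagen gene COL1A1 at 1514 ± 101 CPM in aggregate and 3210 ± 82.7 CPM in diffuse libraries (SD, n = 3 each). The part of these genes in the splicing differences was not tested. In bulk libraries, fewer cells of a kind and less RNA per cell cannot be told apart, nor can a partial change of inclusion in all cells and a full change in some.

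Shown first, so that the changed stretch of RNA can be read, are 10 annotated coding exons: the 4 largest losses among wholly coding exons, and 6 gains of differing size and firmness in genes of different roles. Each is shown as it stands in the RNA, 5′ to 3′, from the GENCODE 29 transcripts of GRCh38: capitals mark the cassette exon and lower case the adjoining 15 bases of the exon on either side, to which the neighbouring exons join directly when the exon is skipped. The first 4 were included less in aggregate cells, the last 6 more.
POLDIP3 87-nt exon, chr22:42601970-42602056, minus strand: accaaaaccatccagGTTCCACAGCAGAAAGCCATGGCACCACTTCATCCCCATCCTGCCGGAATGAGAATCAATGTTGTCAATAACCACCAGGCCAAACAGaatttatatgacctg
EP400 90-nt exon, chr12:131994867-131994956, plus strand: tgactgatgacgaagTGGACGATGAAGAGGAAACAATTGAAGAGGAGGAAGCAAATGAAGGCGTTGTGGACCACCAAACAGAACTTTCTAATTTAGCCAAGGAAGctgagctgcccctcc
CDK5RAP2 237-nt exon, chr9:120407012-120407248, minus strand: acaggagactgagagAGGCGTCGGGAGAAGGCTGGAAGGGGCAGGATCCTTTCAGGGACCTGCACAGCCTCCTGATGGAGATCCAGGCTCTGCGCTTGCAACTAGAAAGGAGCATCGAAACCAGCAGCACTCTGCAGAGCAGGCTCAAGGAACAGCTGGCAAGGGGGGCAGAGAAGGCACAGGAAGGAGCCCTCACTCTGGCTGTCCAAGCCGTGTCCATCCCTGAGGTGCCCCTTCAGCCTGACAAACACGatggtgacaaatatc
RBM26 72-nt exon, chr13:79353153-79353224, minus strand: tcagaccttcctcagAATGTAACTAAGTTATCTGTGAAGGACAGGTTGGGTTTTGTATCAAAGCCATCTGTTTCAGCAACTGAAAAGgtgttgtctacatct
CACNA1C 75-nt exon, chr12:2547450-2547524, plus strand: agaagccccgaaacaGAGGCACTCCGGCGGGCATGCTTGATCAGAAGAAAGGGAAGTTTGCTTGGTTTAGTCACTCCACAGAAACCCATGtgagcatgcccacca
RAI14 87-nt exon, chr5:34813574-34813660, plus strand: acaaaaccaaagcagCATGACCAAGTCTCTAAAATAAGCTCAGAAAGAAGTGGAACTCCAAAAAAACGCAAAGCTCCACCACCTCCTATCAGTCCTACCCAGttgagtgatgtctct
MACF1 63-nt exon, chr1:39378461-39378523, plus strand: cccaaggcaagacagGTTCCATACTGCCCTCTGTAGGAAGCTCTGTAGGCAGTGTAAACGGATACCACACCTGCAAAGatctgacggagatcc
TNIK 87-nt exon, chr3:171139470-171139556, minus strand: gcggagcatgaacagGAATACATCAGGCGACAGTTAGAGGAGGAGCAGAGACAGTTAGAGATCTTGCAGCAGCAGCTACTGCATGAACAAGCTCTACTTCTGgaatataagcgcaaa
STAG2 111-nt exon, chrX:124090854-124090964, plus strand: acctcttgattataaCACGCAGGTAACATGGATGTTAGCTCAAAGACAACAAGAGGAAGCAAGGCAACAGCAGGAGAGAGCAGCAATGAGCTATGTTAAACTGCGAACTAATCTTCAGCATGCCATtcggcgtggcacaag
ZMYND11 162-nt exon, chr10:221195-221356, plus strand: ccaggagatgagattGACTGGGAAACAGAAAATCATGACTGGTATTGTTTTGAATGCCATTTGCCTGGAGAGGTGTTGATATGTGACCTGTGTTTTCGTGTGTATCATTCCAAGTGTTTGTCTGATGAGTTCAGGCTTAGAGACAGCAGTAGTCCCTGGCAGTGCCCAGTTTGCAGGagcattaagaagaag

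By the cluster test, more cassette exons gained than lost inclusion in aggregate cells, a balance that turned round with DESeq2 on the skipping intron. Inclusion is the mean count of both flanking introns divided by that mean plus the count of the skipping intron, in percent per library. Of the 6584 exons, 256 (3.89%), in 248 genes, lay in a cluster whose intron use changed (edgeR diffSpliceDGE, Simes p per cluster, Benjamini-Hochberg adjustment over 35898 tested clusters, threshold 0.05), where 5.02% of all tested clusters did. Mean inclusion was higher in aggregate cells for 188 of them (2.86% of the exons) and lower for 68 (1.03%). The cluster F test gave 245 higher and 150 lower, limma on the log2 inclusion ratio 290 higher and 85 lower, and DESeq2 on the skipping intron 215 higher and 250 lower. This DESeq2 fit scaled each library by its counts for the flanking introns, as if these held no counting error. Such counts are few where an exon is mostly skipped. Their part in the reversal was not tested. The share was 6.58% for the 714 clusters of the same shape with an exon of up to 51 nt and 4.24% for the 543 with an exon over 500 nt. An unadjusted p under 0.05 was reached by 853 of the 6584.

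The size of the changes varied widely around a median of 5.48 percentage points among the 256. A difference of at least 5 points was found for 133 exons (2.02%; 103 higher, 30 lower), of at least 10 points for 87 exons (1.32%; 65 higher, 22 lower), of at least 20 points for 35 (0.532%; 27 higher, 8 lower), and of at least 30 points for 10, of which 7 were higher and 3 lower. The 3 aggregate and the 3 diffuse values did not overlap for 246 of the 256, and for 1720 (26.1%) of all the exons. The cluster test also responds to a shift between the flanking introns. The skipping intron, tested against its cluster, passed for 188 of the 256 (166 higher, 22 lower in inclusion). Of all skipping introns 2.99% passed, and of all tested introns 2.05%. Where most reads skip an exon, this intron makes up most of its cluster, so that test can miss a change in inclusion. For the ACSF2 exon described below, diffSpliceDGE gave an adjusted p of 6.23e-07 for the cluster and 0.117 for the skipping intron. A skipping intron that did not pass therefore cannot tell a change in inclusion from a shift between the flanking introns. In ZNF436 a 93-nt exon passed by cluster (diffSpliceDGE adjusted p = 0.0181) with overlapping groups, while its skipping intron did not pass. Its flanking introns had 46, 26 and 39 against 2, 4 and 2 counts in aggregate libraries. In diffuse libraries they had 87, 83 and 97 against 22, 36 and 50. Leaving out any 1 library gave 152 to 178 changed exons, the fewest without diffuse library 3.

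**Figure D1:**
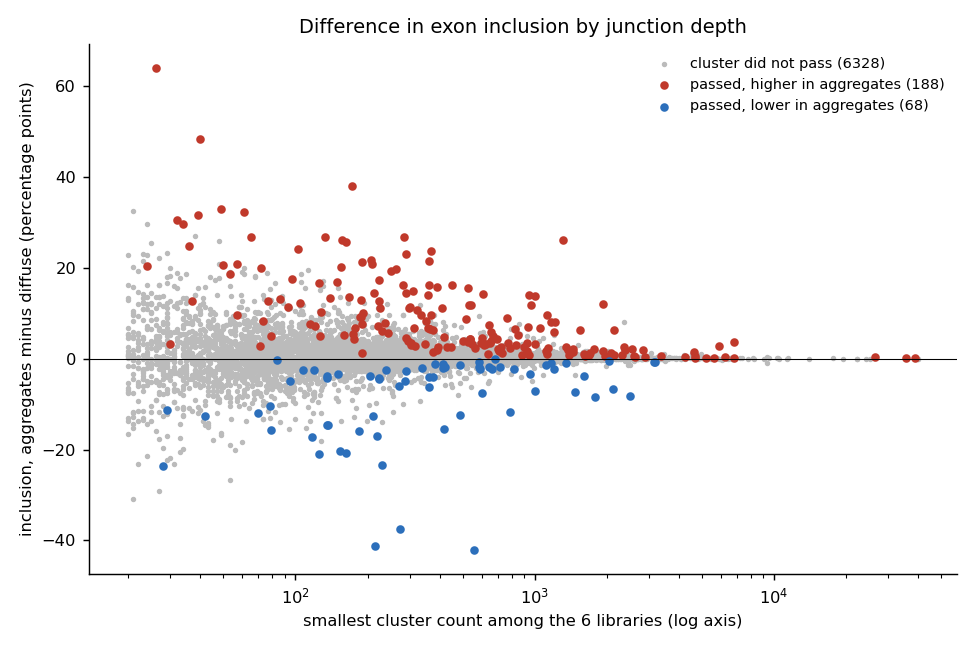
Difference in inclusion (aggregates minus diffuse, percentage points) of each cassette exon against the smallest cluster count among the 6 libraries, on a log axis, 1 point per exon. Red points are the 188 exons that passed with higher inclusion in aggregates and blue points the 68 that passed with lower inclusion; small differences passed mainly at the right, where clusters hold 1000 or more counts.

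CACNA1C encodes the pore-forming subunit of an L-type calcium channel, and its 75-nt exon had the largest gain. Inclusion was 78.3%, 80.4% and 68.3% in aggregate libraries 1 to 3, against 10.6%, 14.3% and 10.2% in diffuse libraries 1 to 3 (difference 63.9 points, diffSpliceDGE adjusted p = 6.1e-06). All aggregate libraries lay far above all diffuse ones. The cluster is shallow, with 219 counts in the aggregate and 89 in the diffuse libraries together. The skipping intron had 9, 10 and 10 counts in aggregate and 21, 27 and 22 in diffuse libraries, while the gene's own level was 11.4 ± 0.302 CPM in aggregate and 12.5 ± 0.833 CPM in diffuse libraries (SD, n = 3 each; edgeR quasi-likelihood test, adjusted p = 0.0414).

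GOLGA4, a golgin that tethers vesicles at the trans-Golgi, included its 63-nt exon at 82.1%, 75.9% and 79.4% in aggregate libraries, against 37.8%, 43.6% and 42% in diffuse libraries (adjusted p = 1.88e-11). RAI14, an actin-associated ankyrin-repeat protein, has the deepest cluster among the 12 largest gains, with 4177 and 5025 counts in the aggregate and diffuse libraries together. Its 87-nt exon stood at 64.3%, 69.4% and 67.1% in aggregate libraries, against 38.8%, 43.9% and 39.9% in diffuse libraries (adjusted p = 9.05e-15). Reads that skip it numbered 285, 258 and 283 in aggregate and 710, 671 and 728 in diffuse libraries, and the groups were well apart in both counts.

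MACF1, a spectraplakin that links actin and microtubules, included a 63-nt exon at 84%, 83.5% and 84.3% in aggregate libraries, against 58.5%, 51.8% and 60.9% in diffuse libraries (adjusted p = 4.14e-09). The aggregate values spread over less than 1 point. MAP2, a microtubule-associated protein of neurons, included a 171-nt exon at 76.5%, 67.6% and 65.7% in aggregate libraries, against 34.3%, 44.9% and 50% in diffuse libraries (adjusted p = 2.6e-04). NICN1, a subunit of the tubulin polyglutamylase complex whose locus also matches a second gene, included a 114-nt exon at 94.7% ± 2.33 in aggregate and 67.9% ± 4.4 in diffuse libraries (SD, n = 3 each; adjusted p = 9.9e-04). ADD3, an adducin of the spectrin and actin network, reached 50.6% ± 5.78 in aggregate and 28.9% ± 3.08 in diffuse libraries for a 96-nt exon (adjusted p = 7.5e-04).

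The 162-nt exon of ZMYND11, a chromatin reader of methylated histone H3.3, stood at 81.2%, 75.7% and 87.7% in aggregate libraries, against 50.9%, 65% and 51.6% in diffuse libraries (adjusted p = 4.6e-04). DNAJC5, the cysteine string protein of synaptic vesicles, included a 74-nt exon at 32.6%, 36.1% and 39.9% in aggregate libraries, against 14.9%, 13.6% and 15.5% in diffuse libraries (adjusted p = 1.94e-05). That exon is annotated but not wholly coding, and its length is not a multiple of 3. TNIK, a kinase of the Wnt pathway, included an 87-nt exon at 22.9%, 16.4% and 32.6% in aggregate libraries, against 1.15%, 5.52% and 2.91% in diffuse libraries (adjusted p = 0.007). The lowest aggregate value was well above the highest diffuse one, although the skipping intron did not pass against its cluster (diffSpliceDGE adjusted p = 0.193). The calls of these 10 exons, CACNA1C to TNIK, held when any 1 library was left out.

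Other large gains missed the threshold when certain libraries were left out. FAM13B, a protein with a RhoGAP domain, included a 66-nt exon at 67.1%, 46.3% and 42.6% in aggregate libraries, against 24.3%, 13.4% and 21.3% in diffuse libraries (adjusted p = 0.00592), and missed the threshold without aggregate library 1 (0.126) or diffuse library 2 (0.0773). NAV3, a neuron navigator that binds microtubules, had 77.3% ± 6.41 in aggregate and 46.8% ± 11.1 in diffuse libraries for a 69-nt exon (SD, n = 3 each; adjusted p = 0.0226); it missed without aggregate library 2 (0.089) or 3 (0.166) and without diffuse library 1 (0.0868) or 2 (0.157). PPFIA3, liprin-alpha-3, had 92.9% ± 4.46 in aggregate and 63.3% ± 13.7 in diffuse libraries for a 94-nt exon (adjusted p = 0.0186) and missed without aggregate library 1 (0.123) or 3 (0.0821) or diffuse library 3 (0.243). TMEM175, a lysosomal potassium channel, had 84.3% ± 8.56 in aggregate and 52.7% ± 8.7 in diffuse libraries for an 84-nt exon (adjusted p = 0.0415) and missed whichever library was left out (0.0535 to 0.276). The 111-nt exon of STAG2, a cohesin subunit, had 30.7%, 30% and 30.8% in aggregate libraries, against 19.5%, 14.3% and 15.7% in diffuse libraries (adjusted p = 0.0138), and missed without aggregate library 1 or 3 (0.0507 each) or diffuse library 2 (0.121). In all 5 of these exons the groups did not overlap. Large gains and list members were named only on that condition, so it adds no support to these calls.

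**Figure D2:**
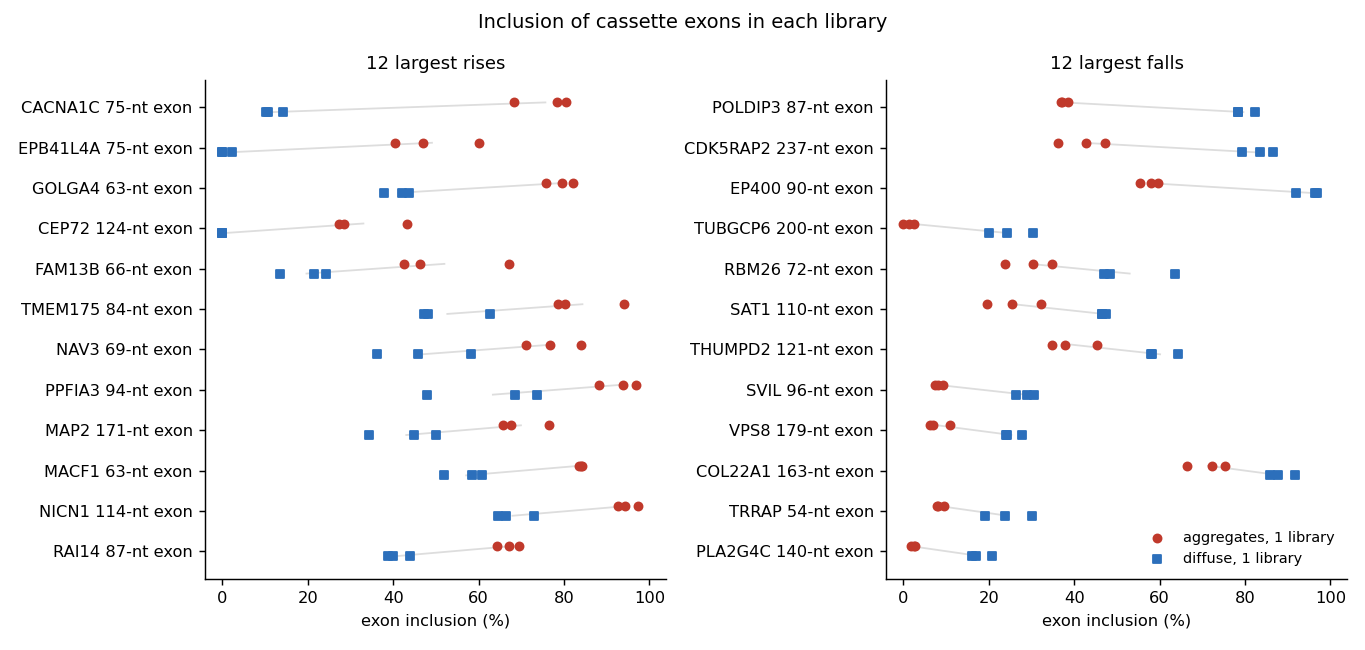
Inclusion (%) in each library of the 12 cassette exons with the largest rises (left panel) and the 12 with the largest falls (right panel) among those that passed and whose groups do not overlap. Red circles are the 3 aggregate libraries, blue squares the 3 diffuse libraries, and a grey line joins the group means; CACNA1C sits at 68.3% to 80.4% in aggregates and POLDIP3 at 36.8% to 38.6%.

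By the cluster test fewer exons lost than gained inclusion, which DESeq2 on the skipping intron did not show (215 higher, 250 lower). The 3 largest losses carried 3 of the 4 lowest adjusted p values among the named exons. POLDIP3, a protein that couples splicing to translation and a known TDP-43 splicing target, included its 87-nt exon at 36.8%, 37.1% and 38.6% in aggregate libraries, against 82.2%, 78.3% and 78.4% in diffuse libraries (difference -42.1 points, adjusted p = 5.44e-22). Reads that skip it numbered 258, 292 and 258 in aggregate and 90, 107 and 114 in diffuse libraries. CDK5RAP2, a centrosomal protein that recruits gamma-tubulin, included a 237-nt exon at 42.7%, 47.2% and 36.3% in aggregate libraries, against 79.3%, 83.6% and 86.7% in diffuse libraries (adjusted p = 4.45e-13). In both genes every aggregate library lay more than 30 points below every diffuse one.

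EP400, the ATPase of a chromatin-remodelling complex, included a 90-nt exon at 57.9%, 55.4% and 59.5% in aggregate libraries, against 92%, 97% and 96.5% in diffuse libraries (adjusted p = 2.41e-16). The intron that skips it is absent from GENCODE 29, and it had 73, 93 and 89 counts in aggregate and 19, 7 and 8 in diffuse libraries. All 3 lengths (87, 237 and 90 nt) are multiples of 3, all 3 exons are wholly coding, and their calls held when any 1 library was left out. The level of EP400 did not pass the test, at 164 ± 7.58 CPM in aggregate and 171 ± 4.6 CPM in diffuse libraries (SD, n = 3 each; edgeR quasi-likelihood test, adjusted p = 0.138).

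SVIL, supervillin of the cortical actin network, included a 96-nt exon at 8.16%, 7.32% and 9.15% in aggregate libraries, against 30.5%, 29% and 26.4% in diffuse libraries (adjusted p = 4.3e-06). COL22A1, a collagen of tissue junctions, included a 163-nt exon at 72.2%, 75.3% and 66.4% in aggregate libraries, against 91.6%, 85.9% and 87.7% in diffuse libraries (adjusted p = 4.7e-04). Both kept their calls when any 1 library was left out. RBM26, an RNA-binding zinc-finger protein, included a 72-nt exon at 34.7%, 30.5% and 23.8% in aggregate libraries, against 48.4%, 46.9% and 63.6% in diffuse libraries (adjusted p = 8.1e-04), and missed the threshold without diffuse library 3 (0.0823), the highest of its group.

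TRRAP, a scaffold of histone acetyltransferase complexes, included a 54-nt exon at 8.46% ± 0.829 in aggregate and 24.3% ± 5.56 in diffuse libraries (SD, n = 3 each; adjusted p = 0.00378), and missed without diffuse library 2 (0.058). VPS8, a subunit of the endosomal CORVET tether, lost inclusion of 2 exons. The 179-nt exon stood at 8.01% ± 2.48 in aggregate and 25.3% ± 2.17 in diffuse libraries (adjusted p = 0.00826), missing without aggregate library 1 (0.0878) or 2 (0.0818) or diffuse library 2 (0.0886), and the 55-nt exon at 4.43% ± 2.36 in aggregate and 19% ± 2.26 in diffuse libraries (adjusted p = 1.6e-04). THUMPD2, a THUMP-domain methyltransferase, had 39.2% ± 5.41 in aggregate and 60.1% ± 3.59 in diffuse libraries for a 121-nt exon (adjusted p = 0.0133), missing without aggregate library 1 (0.081) or 3 (0.115) or diffuse library 3 (0.13). SAT1, the spermidine and spermine acetyltransferase, had 25.8% ± 6.36 in aggregate and 46.8% ± 0.515 in diffuse libraries for a 110-nt exon (adjusted p = 0.0422) and passed only when aggregate library 1 was left out, with 0.12 to 0.255 for the other 5 libraries. The flanking introns of SAT1 were used unequally, with 21, 16 and 7 against 64, 36 and 34 counts in aggregate libraries. In diffuse libraries they had 33, 46 and 48 against 94, 97 and 91 counts.

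Exons absent from GENCODE 29 changed in both directions. They made up 1283 of the 6584, and 46 of them (3.59%) passed, 21 with higher and 25 with lower inclusion in aggregate cells, against 210 of the 5301 annotated exons (3.96%; 167 higher, 43 lower). The gains included exons that were near 0 in diffuse cells. Of the 188 exons with higher inclusion, 16 stood under 1% in diffuse libraries, 14 of them unannotated. A total of 9 of the 16 gained 5 points or more, and 8 had no flanking count in any diffuse library. Those 8 met the rule only through flanking counts in aggregate libraries, so their 0 in diffuse libraries is no independent support for a gain. Among the 68 with lower inclusion, 22 stood under 1% in aggregate libraries, 13 of them unannotated, and 0 of the 22 had lost 5 points or more.

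EPB41L4A, a band 4.1 family protein with a FERM domain, included an unannotated 75-nt exon (chr5:112267210-112267284) at 46.9%, 60% and 40.4% in aggregate libraries, against 0%, 2.17% and 0% in diffuse libraries (adjusted p = 1.79e-06). CEP72, a centrosomal protein, included an unannotated 124-nt exon (chr5:648100-648223) at 43.2%, 27.3% and 28.6% in aggregate libraries, while none of its 201 cluster counts in the diffuse libraries came from a flanking intron (adjusted p = 1.01e-07). A count of 0 in 201 allows up to 1.49% of the cluster counts. This limit and those below are shares of cluster counts. For flanking introns the limit on the inclusion scale is lower. ACSF2, a mitochondrial acyl-CoA synthetase, included an unannotated 66-nt exon (chr17:50461820-50461885) at 25.9%, 13% and 21.2% in aggregate libraries, with 0 flanking counts of 252 in the diffuse libraries, which allows up to 1.19% (adjusted p = 6.23e-07). These 3 exons were thus used at double-digit rates in every aggregate library and rarely or not detectably in diffuse ones, and each call held when any 1 library was left out.

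CEP83, a protein of the distal appendages of centrioles, included an unannotated 59-nt exon (chr12:94410621-94410679) at 19.5%, 14.3% and 7.5% in aggregate libraries, against 0%, 0% and 1.85% in diffuse libraries (adjusted p = 0.00105), a call that held without any 1 library. UNC13A, which primes synaptic vesicles for release, included an unannotated 128-nt exon (chr19:17642414-17642541) at 12.1%, 18.5% and 7.53% in aggregate libraries, with 0 flanking counts of 167 in the diffuse libraries, which allows up to 1.8% (adjusted p = 0.0127). It missed without aggregate library 2 (0.107) or diffuse library 1 (0.0564), 2 (0.0663) or 3 (0.0801). DOCK1, an activator of the GTPase Rac, included an unannotated 89-nt exon (chr10:127381953-127382041) at 10.3%, 5.56% and 12.9% in aggregate libraries, with 0 flanking counts of 246 in the diffuse libraries, which allows up to 1.22% (adjusted p = 0.019), and missed without diffuse library 1 (0.0684), 2 (0.081) or 3 (0.11). The flanking counts behind the last 2 exons were few: 2 to 11 per intron and library for UNC13A and 1 to 11 for DOCK1 in aggregate cells.

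For some exons the flanking introns were used very unequally, so that inclusion, their mean, stands for no whole exon. In TEX10, of a ribosome assembly complex, the unannotated 185-nt stretch had 248, 273 and 257 counts for the intron at lower coordinates but only 4, 14 and 11 for the other in aggregate libraries, and 146, 160 and 167 against 4, 4 and 12 in diffuse libraries. Its inclusion was 90.3% ± 3.62 in aggregate and 69.1% ± 7.83 in diffuse libraries (SD, n = 3 each; adjusted p = 1.2e-04). ACTR8, a subunit of the INO80 remodeller, was unequal the other way round, with 32, 26 and 27 against 192, 218 and 196 counts in aggregate libraries and 45, 43 and 30 against 265, 280 and 272 in diffuse libraries. Its 189-nt stretch stood at 98.6% ± 1.32 in aggregate and 81.4% ± 1.66 in diffuse libraries (adjusted p = 3.43e-07). Across all cassette exons the flanking introns stayed within 2-fold of each other for 6003 of 6584, and for 233 of the 256 that passed.

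Of the unannotated exons with lower inclusion, 2 lay among the 12 largest losses. TUBGCP6, of the gamma-tubulin ring complex, had a 200-nt exon at 1.23%, 2.38% and 0% in aggregate libraries, against 30.2%, 24.2% and 20% in diffuse libraries (adjusted p = 0.00529). The cluster is shallow (131 counts in the aggregate and 99 in the diffuse libraries together), and the call was lost without aggregate library 3 (0.0629) or diffuse library 1 (0.0633) or 2 (0.0698). Its flanking introns had 11, 13 and 4 against 2, 3 and 6 counts in diffuse libraries, few and unequal. PLA2G4C, a cytosolic phospholipase A2, had a 140-nt exon at 1.69%, 2.36% and 2.59% in aggregate libraries, against 16%, 20.8% and 17% in diffuse libraries (adjusted p = 1.2e-04), and the call held without any 1 library. The PLA2G4C stretch shares 1 end with an annotated exon and lies inside one, whereas neither end of the TUBGCP6 exon is annotated. PLA2G4C itself was higher in aggregate cells, at 31.5 ± 1.46 CPM and 11.5 ± 0.506 CPM in diffuse cells.

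**Figure D3:**
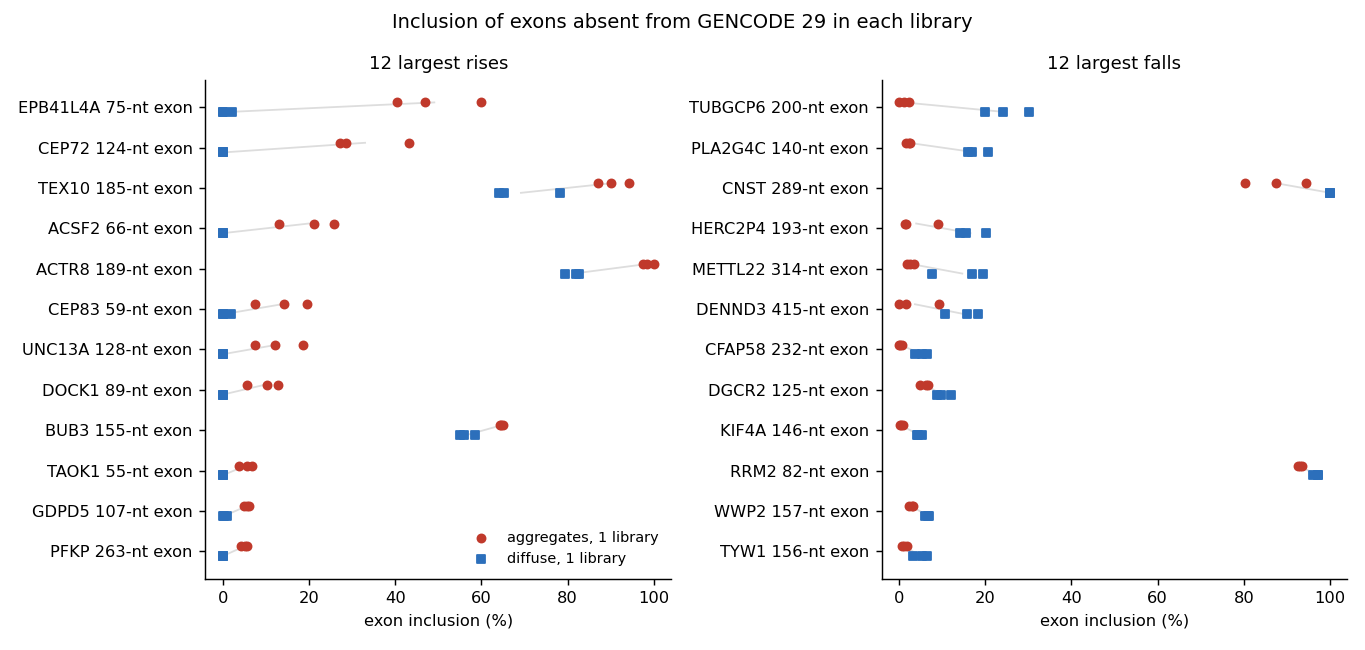
Inclusion (%) in each library of the 12 exons absent from GENCODE 29 with the largest rises (left panel) and the 12 with the largest falls (right panel), among those that passed and whose groups do not overlap. Red circles are aggregate and blue squares diffuse libraries, with a grey line between the group means. EPB41L4A, CEP72, ACSF2, UNC13A and DOCK1 sit at or near 0 in diffuse libraries, and TEX10 and ACTR8 have unequal flanking introns. TEX10, ACTR8 and PLA2G4C each share 1 end with an annotated exon.

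Small changes at exons that are nearly always included or nearly always skipped made up much of the rest. The TFIID subunit TAF1 included a 176-nt exon at 100% in every aggregate library, with 0 skipping counts of 696, against 94%, 90.6% and 92.9% in diffuse libraries (adjusted p = 0.00209). A skipping count of 0 in 696 allows up to 0.431% of the cluster counts. As a share of skipping on the inclusion scale that limit is higher. The autophagy receptor TAX1BP1 included a 188-nt exon at 98.2% ± 0.105 in aggregate and 95.7% ± 0.968 in diffuse libraries (SD, n = 3 each; adjusted p = 0.0235). The COPII coat protein SEC31A had 98.2% ± 0.575 in aggregate and 96% ± 0.669 in diffuse libraries for a 72-nt exon (adjusted p = 0.0378). The TAF1 call held when any 1 library was left out. The TAX1BP1 call held only without diffuse library 3 and missed otherwise (0.0746 to 0.209), and the SEC31A call held only without aggregate library 3 and missed otherwise (0.0556 to 0.254).

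Gene lists by role were compared with the 3.89% of all cassette exons that passed. The lists were drawn up with earlier results of these data known, so their counts are descriptions. They give no independent evidence of direction, of a raised share or of a raised median difference. Genes named as TDP-43 splicing targets had 41 cassette exons in 24 genes, of which 9 (22.0%) passed, 8 with higher inclusion and the 87-nt exon of POLDIP3 with lower; 2 further members were RANBP1 (118 nt, 1.75 points, adjusted p = 5.1e-08), of nuclear transport, and the phosphofructokinase gene PFKP (263 nt, 5.02 points, adjusted p = 0.0122). The median difference over the 41 was 1.33 points, against 0.27 over all 6584. Some genes of this list, such as EPB41L4A and CEP72, had entered it because of those earlier results.

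Of 110 exons in actin, microtubule and adhesion genes, 11 (10.0%) passed, 6 with higher and 5 with lower inclusion. Beside those named above they included the liprin PPFIA1 (71 nt, 10.8 points), the integrin ITGA6 (130 nt, -15.5 points), the spectrin SPTAN1 (60 nt, -11.7 points, adjusted p = 3.5e-08), vinculin, VCL (204 nt, -1.18 points), and the GTPase CDC42 (176 nt, -0.83 points). Genes of splicing regulators had 80 exons, of which 7 (8.75%) passed, 4 higher and 3 lower. CLK1, a kinase of SR splicing factors, included a 91-nt exon at 44.2%, 58.3% and 52.4% in aggregate libraries, against 30.8%, 35.1% and 28.5% in diffuse libraries (adjusted p = 0.0283); it held only without aggregate library 1 and otherwise missed (0.0501 to 0.26). The other changes were small: HNRNPDL gained 1.41, HNRNPU 0.22 and HNRNPA3 0.17 points, while SRSF4 fell by 4.44 points and the 2 exons of BCLAF1 by 1.87 and 2.24 points. The HNRNPDL call missed whichever library was left out (0.0592 to 0.169), the SRSF4 call held only without diffuse library 1 (otherwise 0.0927 to 0.234), the 61-nt exon of BCLAF1 only without diffuse library 3 (otherwise 0.0594 to 0.504), and its 227-nt exon missed without aggregate library 1 (0.0583) or 3 (0.0707) or diffuse library 2 (0.0973).

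Chromatin and transcription factor genes had 145 exons, 6 of which (4.14%) passed: ZMYND11, STAG2, TAF1 and the remodeller ATRX (176 nt, 6.58 points, adjusted p = 3.6e-05) with higher inclusion, EP400 and TRRAP with lower. Vesicle traffic and autophagy genes had 102 exons, of which 4 (3.92%) passed, all higher: GOLGA4, TAX1BP1, SEC31A and clathrin heavy chain, CLTC, with an unannotated 62-nt exon at 1.24% ± 0.107 in aggregate and 0.545% ± 0.221 in diffuse libraries (SD, n = 3 each; adjusted p = 0.0408). Kinase and signalling genes had 104 exons, of which 2 (1.92%) passed, both higher, TNIK among them. The CLTC call held only without diffuse library 3 (otherwise 0.102 to 0.274). The shares of the last 3 lists lay near or below that of all cassette exons.

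Several genes known for TDP-43-dependent splicing had cassette exons that did not pass. Whether these are the exons of those genes that depend on TDP-43 was not tested, and they may be different ones. The MADD exon, the MEF2D exon and the 108-nt exon of STAG2 were nearly always included in both groups, and their skipping introns are unannotated. The 121-nt exon of MADD, a regulator of Rab3 and of cell death signalling, stood at 100%, 100% and 97.4% in aggregate libraries, against 96.6%, 100% and 96.8% in diffuse libraries (adjusted p = 0.914). The 307-nt exon of the transcription factor MEF2D stood at 99.1% ± 0.742 in aggregate and 99.8% ± 0.414 in diffuse libraries (SD, n = 3 each; adjusted p = 1). A second POLDIP3 exon of 65 nt, rarely used, stood at 0.51%, 1.29% and 0.917% in aggregate libraries, against 2.61%, 2.16% and 1.4% in diffuse libraries (adjusted p = 0.13). The 108-nt and 123-nt exons of STAG2 stood at 97.9% ± 1.8 and 3.16% ± 0.955 in aggregate libraries, against 98.8% ± 1.52 and 1.83% ± 1.2 in diffuse libraries (adjusted p = 1 for each). Within POLDIP3 and STAG2, then, 1 exon passed and the others did not, a contrast that was not itself tested. SORT1, BRD8 and HNRNPA1 had no exon that met the rule.

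The direction of the differences ran with the annotation of the exon and of the skipping intron. Among the 2487 annotated exons whose skipping intron is unannotated, inclusion was higher in aggregates for 71.8%. With the counts of these exons summed before inclusion was taken, skipping (100% less the pooled inclusion) was 1.10%, 1.12% and 1.08% in aggregate libraries, against 1.57%, 1.67% and 1.60% in diffuse libraries. Among the 1199 unannotated exons with an annotated skipping intron, inclusion was lower in aggregates for 64.6%. Their pooled inclusion was 3.35%, 3.33% and 3.23% in aggregate libraries, against 3.86%, 3.98% and 3.86% in diffuse libraries. In both classes the unannotated form was the rarer one in aggregate cells, and no aggregate library overlapped a diffuse one. The classes also differ in inclusion level. Median inclusion in diffuse libraries was 98.3%, 98.2% and 98.2% in the first class and 1.96%, 2.11% and 1.97% in the second. Annotation and inclusion level were not separated, and the part of each in the direction was not tested.

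Where exon and skipping intron are both annotated (2814 exons), 59.4% were higher in aggregates and pooled inclusion was 69.5%, 69.4% and 69.7% in aggregate libraries, against 68.0%, 67.9% and 67.7% in diffuse libraries. Each of these 3 contrasts had a two-sided exact permutation p of 0.1, the smallest that 3 against 3 libraries allow, so none can reach 0.05. The exons that passed did not make up these shares: without them, 71.2% of the first class were higher, 64.9% of the second lower and 58.7% of the third higher. In the 84 clusters with neither form annotated, 56.0% were higher and pooled inclusion was 95.3% ± 0.0959 in aggregate and 95.1% ± 0.253 in diffuse libraries (SD, n = 3 each; exact permutation p = 0.5). Over all 6584 exons, 3928 (59.7%) were higher and 2656 lower, with a median difference of 0.27 points. The aggregate libraries had more intron counts in all (28529818 to 32020553) than the diffuse ones (25341453 to 26907926), and the part of depth in these small shifts was not tested.

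**Figure D4:**
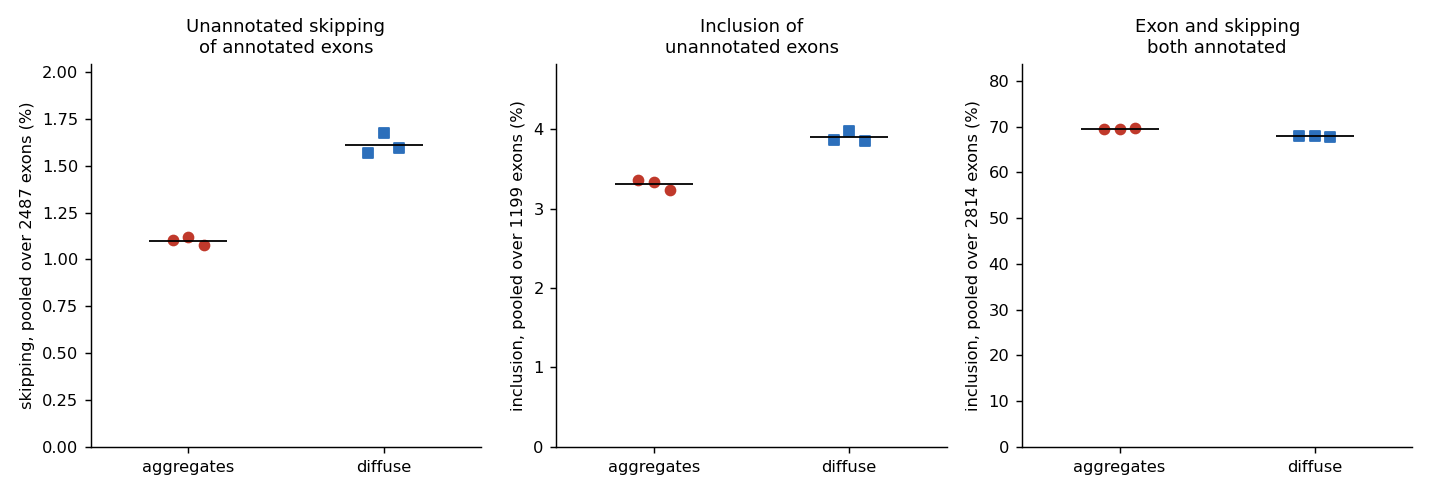
Pooled skipping or inclusion (%, all axes start at 0) in each library for 3 classes of cassette exon, with a black line at the group mean. Unannotated skipping (left panel) stands at 1.08% to 1.12% in aggregates and 1.57% to 1.67% in diffuse libraries, inclusion of unannotated exons (middle panel) at 3.23% to 3.35% in aggregates and 3.86% to 3.98% in diffuse libraries, and inclusion where both forms are annotated (right panel) at 69.4% to 69.7% in aggregates and 67.7% to 68.0% in diffuse libraries.

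How many exons passed moved with depth and with the inclusion level. Of exons whose smallest cluster count was 20 to 49, 1.99% passed, against 2.52% at 50 to 199, 4.09% at 200 to 999 and 9.08% at 1000 or more. The median size of a passing change was 24.7 points in the shallowest of these classes and 1.47 points in the deepest, where the median SD between replicates was 0.179 points in aggregate and 0.244 points in diffuse libraries. By inclusion in diffuse cells, the share was highest for exons at 50 to 90% (8.41%; 59 higher, 10 lower) and at 10 to 50% (6.76%; 18 higher, 16 lower). Exons at 1 to 10% passed least (2.5%), and there 29 of 33 were lower in aggregates, whereas below 1% 16 of 19 were higher. These classes are cut on the diffuse mean, which is also part of the difference, so the direction within a class is no result. An exon below 1% in diffuse cells had little room to fall. Above 90%, 91 of the 101 that passed were higher. Both there and at 1 to 10%, most that passed moved towards the nearer limit, which, with classes cut this way, is a description only.

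**Figure D5:**
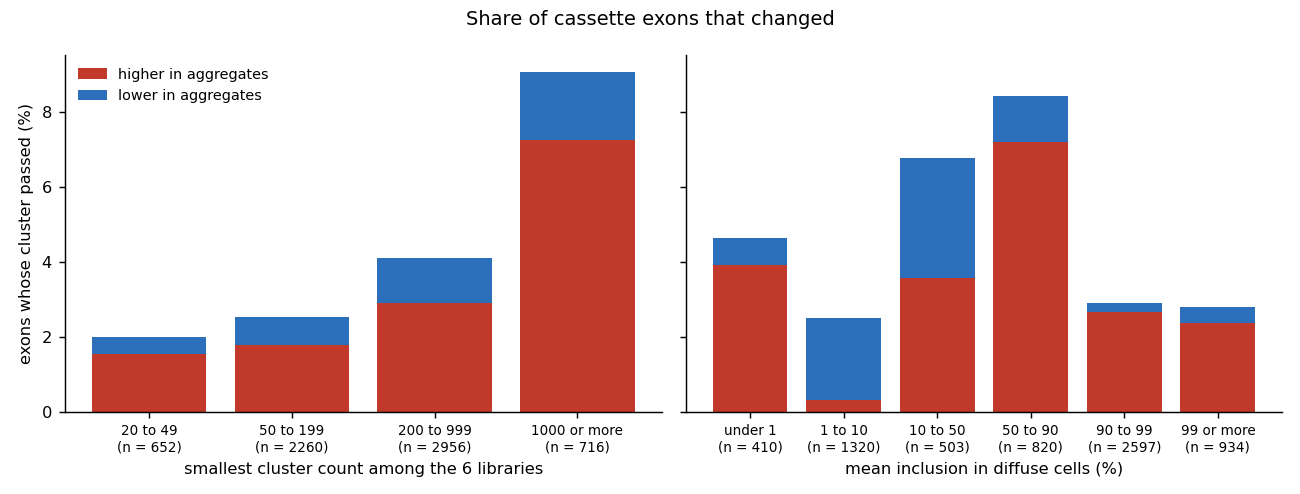
Share of cassette exons (%) whose cluster passed, by smallest cluster count among the 6 libraries (left panel) and by mean inclusion in diffuse cells (right panel), with the number of exons in each class below its bar. Red is the part with higher and blue the part with lower inclusion in aggregates; the share grows to 9.08% at 1000 or more counts, and the class at 1 to 10% inclusion is the only one that is mostly blue.

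The exons with higher and those with lower inclusion in aggregates were of different makeup. Of the 188 higher, 84.0% are wholly coding and 88.8% annotated, and of the 68 lower, 35.3% and 63.2%, against 67.4% and 80.5% of the 6328 that did not pass. The skipping intron is annotated for 64.4% of the higher, 89.7% of the lower and 60.5% of the rest. Median length was 105.5 nt, 127.5 nt and 117 nt in the same order, and 37.8%, 44.1% and 44.8% had a length that is a multiple of 3. The median GC content of annotated exons was 44.2% for the 167 higher, 50.6% for the 43 lower and 49.2% for the 5091 others. These are descriptions of sets chosen by the test, without a test of their own.

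The letters GTGTGT, a DNA spelling of the UG repeat that TDP-43 binds, were searched in the sense strand of annotated exons. They occurred in 8 of the 167 higher (4.79%), 3 of the 43 lower (6.98%) and 151 of the 5091 other exons (2.97%), among them the ZMYND11 exon shown above. On the opposite strand, ACACAC occurred in 2.99%, 2.33% and 2.38%. GAAGAA, a purine-rich motif of exonic splicing enhancers, occurred in 12.6%, 4.65% and 11.7%, and its reverse complement TTCTTC in 5.39%, 2.33% and 5.32%. Introns, where most TDP-43 binding is known to lie, were not searched here.

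Most genes of the changed exons also changed in level, as did most genes measured. Of 247 such genes tested, 215 (87.0%) changed (edgeR quasi-likelihood test, adjusted over 17839 genes), where 75.4% of all tested genes did. Of these, 114 were higher and 101 lower in aggregates, with 12 up and 9 down by 2-fold or more, and the median log2 fold change over the 247 was 0.03. Some of these genes differed little in level: POLDIP3 stood at 114 ± 1.39 CPM in aggregate and 122 ± 4.94 CPM in diffuse libraries (edgeR adjusted p = 0.0134), ZMYND11 at 38.5 ± 1.52 CPM in aggregate and 39.9 ± 1.16 CPM in diffuse libraries (adjusted p = 0.262), and STAG2 at 117 ± 2.7 CPM in aggregate and 114 ± 3.03 CPM in diffuse libraries (adjusted p = 0.25; SD, n = 3 each). NAV3 was the gene with the largest rise in level among those named, 81.1 ± 0.685 CPM in aggregate and 29.3 ± 0.524 CPM in diffuse libraries (log2 fold change 1.47), and FAM13B had 22.9 ± 0.46 CPM in aggregate and 61.6 ± 1.48 CPM in diffuse libraries (log2 fold change -1.43). The 8 genes with a gained exon that had no flanking count in diffuse libraries changed in both directions. The log2 fold change was -0.43 for CEP72, -0.63 for UNC13A, -0.85 for DOCK1, -0.60 for TAOK1 and -0.18 for ACSF2, so that 5 were lower in aggregates, and 0.40 for PFKP, 0.13 for AARS and 0.10 for PXDN, so that 3 were higher.

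In 8 genes 2 cassette exons passed. Both moved the same way in 5 of them: VPS8 and BCLAF1, described above, lost inclusion, TXNL1 fell by 1.74 and 0.19 points, and ACADM, the medium-chain acyl-CoA dehydrogenase, and CLUAP1, of intraflagellar transport, gained. ACADM gained 11.2 points at an 88-nt exon and 3.45 points at a 101-nt exon, and CLUAP1 9.94 and 5.62 points. In NAA25, a subunit of an N-terminal acetyltransferase, a 119-nt exon stood at 92.3% ± 3.03 in aggregate and 77.8% ± 1 in diffuse libraries (SD, n = 3 each; adjusted p = 0.00331), and a 129-nt exon at 8.32% ± 1 in aggregate and 22.8% ± 3.21 in diffuse libraries (adjusted p = 0.0337). LARS and PIP5K1A also moved in opposite directions, by at most 2.34 points.

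At the limits of the rule the values were as follows. The 306 exons of 52 to 60 nt had a median absolute difference of 1.13 points, and the 288 of 43 to 51 nt one of 1.47 points. It was 0.598 points for the 33 exons of 451 to 500 nt and 1.90 points for the 15 of 501 to 550 nt. It was 6.02 points for the 120 exons whose smallest cluster count was 20 to 24 and 8.13 points for the 127 at 15 to 19.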

How the data were processed

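The submitters' processing notes give hg38 as the build, and list STAR (2.7.11a) and fastp (0.23.2). As for the rest, which program counted genes, with what annotation and strand setting, and which LeafCutter release was run is not given in the sources used here. Whole-number counts, not normalized, were deposited by the authors for 36601 genes and for 153462 introns. Read counts carry no molecular identifiers, so limits from a count of 0 (3 counts) cover counting error only. They are given as shares of all counts of the cluster.

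Clusters needed 10 counts per library and introns 10 in all 6 libraries together to be tested with edgeR 4.0.16 (diffSpliceDGE) in R 4.3.3; 144620 introns entered. All cassette exons entered that fit. Genes were tested with edgeR's quasi-likelihood test (filterByExpr, TMM). Exons were matched by both ends to GENCODE 29. DESeq2 1.42.0 and limma 3.58.1 served as alternatives. On simulated counts for aggregates against diffuse, 27 of 100 clusters changed by 2-fold odds and 94 of 100 changed by 4-fold odds were recovered. There were 0 calls among the unchanged of 35898. The changed clusters were drawn only from cassette exons with enough expected counts for both skipping and inclusion. Noise followed the fitted dispersion trend, without variation of single introns around it. These rates therefore do not cover shallow exons or exons nearly always included or skipped.

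The exons, gene lists and tests were chosen with earlier results of these data known. Named are the 12 largest gains and losses that passed without overlap between groups, up to 8 unannotated gains, up to 5 exons per list, and 7 fixed genes (MADD, POLDIP3, SORT1, STAG2, BRD8, MEF2D, HNRNPA1). RANBP1, PFKP, PPFIA1, ITGA6, SPTAN1, VCL, CDC42, HNRNPU, HNRNPA3, ATRX, TAOK1, AARS, PXDN, ZNF436 and the genes with 2 changed exons were named after their values were seen. The result of 1 named exon is not reported here. The series design describes the 3 transfections per group as independent. Replicates differed by 2.04 to 2.82 chi-square per degree of freedom, more than sampling noise.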

Additional observations from a re-analysis of the deposited data

How the results depend on the processing

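Leaving out 1 library gave 152 to 178 changed cassette exons in place of 256, 108 to 136 with higher inclusion (188 reported) and 39 to 44 with lower (68); the skipping intron also passed for 101 to 131 (188). Of 45 named exons that passed, 23 did so in all 6 such fits. The cluster F test called 395 exons, 150 of them lower; DESeq2 on the skipping intron called 465, 250 of them lower, and left 865 without an adjusted p; limma on the log2 inclusion ratio called 290 with higher inclusion. Minimum differences of 5, 10 and 20 points left 133 (103 higher, 30 lower), 87 (65, 22) and 35 (27, 8). The main test did not pair libraries by replicate number, and whether shared numbers mark pairs was not settled. Deviations of gene CPM correlated at 0.042, 0.10 and 0.14 for equal numbers, and at -0.12 to 0.0092 for different numbers. As a hint of pairing, every library correlated best with its own number there. In the inclusion ratios all but aggregate library 1 did so. The correlations there were 0.0059, 0.021 and 0.040 for equal numbers, and -0.033 to 0.014 for different numbers. With the replicate block 192 exons were called, 191 of them among the 256, and 6 named exons missed the threshold: TMEM175 (0.0507), DOCK1 (0.0598), TAX1BP1 (0.0524), SEC31A (0.0611), HNRNPDL (0.0563) and the 61-nt exon of BCLAF1 (0.0825). The median size of the named differences, 20.3 points, was 17.8 with the flanking intron at lower coordinates alone. RLE scaling gave 257 and no intron filter 256. No named exon changed the sign of its difference under the alternatives run for it, but the balance of all changed exons did with DESeq2 on the skipping intron (215 higher, 250 lower). Depth limits small changes: with 20 to 49 counts the median SD between replicates was 5.35 points in aggregate and 5.65 points in diffuse libraries. The cause of these differences between settings was not tested.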
